A study of Mus musculus with 40 samples.

Results

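TRBV14, TRBV15, TRBV16, TRBV17, TRBV19 and TRBV20 are 6 neighbouring V segments in the middle of the V array of the mouse T cell receptor beta locus (Trb). They were taken by name from the Trb tables, which list 22 Trbv segments in all, and all 6 were present in each table. The series asks for the role of a CTCF binding site at Ea, the enhancer of the T cell receptor alpha locus, whose loss is called EACBE-/- in the labels. Thymus RNA of EACBE-/- and of EACBE+/+ (wild-type) C57BL/6 mice aged 4 to 8 weeks was copied by 5′ RACE, a method that extends cDNA to the 5′ end of the transcript and so needs no V-specific primers. Each genotype had 2 Trb libraries, and the labels name no other allele or treatment for these mice. Nothing in the labels says that the 2 libraries of a genotype came from separate mice, so p-values between genotypes may measure technical spread only.

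A beta chain is assembled in immature thymocytes by joining a Trbd to a Trbj segment and then a Trbv segment to that DJ join. The Trbj segments lie in a Trbj1 and a Trbj2 cluster, each behind its own Trbd segment, and Trbd1 can join to either cluster. The V segment encodes most of the variable domain, including the loops CDR1 and CDR2, and the V-D-J junction encodes CDR3. The deleted site lies outside Trb, on another chromosome, and no column of the tables reads it, so the genotype labels could not be checked from these data. The tables hold receptor segments alone, and no marker of thymocytes or of any other cell type is measured in them.

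On mouse chromosome 6 (mm10, positions from RefSeq for GRCm38.p6) the 6 segments span 53.8 kb. TRBV14 lies at 41135167 to 41135616, TRBV15 at 41141211 to 41141658 and TRBV16 at 41151791 to 41152230. TRBV17 follows at 41163092 to 41163556, TRBV19 at 41178589 to 41179048 and TRBV20 at 41188273 to 41188977. Each of the 6 is annotated as a V segment, whereas TRBV18, between TRBV17 and TRBV19, is annotated as a V segment pseudogene and has no row in the tables. From the end of TRBV14 to Trbd1 the distance is 397.6 kb, and from the end of TRBV20 it is 344 kb. The J columns are 5 of the Trbj1 cluster (TRBJ1-1 to TRBJ1-5) and 6 of the Trbj2 cluster (TRBJ2-1 to TRBJ2-5 and TRBJ2-7).

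Table totals were 20678 and 443589 counts in EACBE-/- and 11412 and 418135 counts in wild type, for replicates 1 and 2. Replicate 2 was therefore far deeper in both genotypes, and its tables had no row for TRBV31, which took 4.26% of EACBE-/- and 4.85% of wild-type counts in replicate 1. The 6 segments held 4985 and 129550 counts in EACBE-/- and 2664 and 123415 counts in wild type. Intervals printed with shares are 95% Wilson intervals and cover counting error only, since the sources used here leave unsaid whether a count stands for a sequenced read or for a distinct receptor. In bulk RNA, fewer cells with a segment and less receptor RNA per cell cannot be told apart.

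Together the 6 segments made up a like share of the beta repertoire in both genotypes. Their summed share was 24.1% and 29.2% in EACBE-/- and 23.3% and 29.5% in wild type, for replicates 1 and 2. The intervals were 23.5 to 24.7% and 29.1 to 29.3% in EACBE-/-, and 22.6 to 24.1% and 29.4 to 29.7% in wild type. The genotypes overlapped, and the libraries differed by replicate number more than by genotype. The means were 26.7% ± 3.60 in EACBE-/- and 26.4% ± 4.36 in wild type (SD, n = 2 each), a difference of 0.227 points. Within replicate 1 the difference was 0.764 points and within replicate 2 it was -0.311 points, so its direction depended on the replicate.

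TRBV15 and TRBV16 were the most used of the 6, and TRBV20 and TRBV14, at its ends, the least. TRBV15 (the older Vβ12) took 6.74% and 7.85% of counts in EACBE-/- and 7.29% and 7.53% in wild type. By its mean over the 4 libraries, 7.35%, it ranked 4 of the 21 segments listed in all tables. TRBV16 (Vβ11) took 5.43% and 6.89% in EACBE-/- and 5.13% and 6.79% in wild type. It was lower than TRBV15 in 4 of 4 libraries. Vβ11 and Vβ12 are among the V families known in mouse for being deleted by endogenous viral superantigens in strains with the I-E class II molecule, which C57BL/6 mice lack.

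TRBV17 (Vβ9) took 4.17% and 4.23% in EACBE-/- and 3.60% and 4.45% in wild type. TRBV19 (Vβ6), another family known for superantigen reactivity, took 3.14% and 4.96% in EACBE-/- and 2.78% and 5.35% in wild type. The order of these neighbours was not stable: TRBV17 was the higher in 2 of 4 libraries, both of them replicate 1. TRBV14 (Vβ13) took 2.61% and 2.90% in EACBE-/- and 2.56% and 2.67% in wild type. TRBV20 (Vβ15) took 2.03% and 2.38% in EACBE-/- and 1.98% and 2.72% in wild type. TRBV14 was above TRBV20 in 3 of 4 libraries, so the order of this pair too was not stable, whereas TRBV16 was above TRBV17 and TRBV19 above TRBV14 in 4 of 4. The genotypes overlapped in all 6 segments. Over the whole table they did not overlap in 3 of the 21 segments, or 14.3%.

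**Figure D1:**
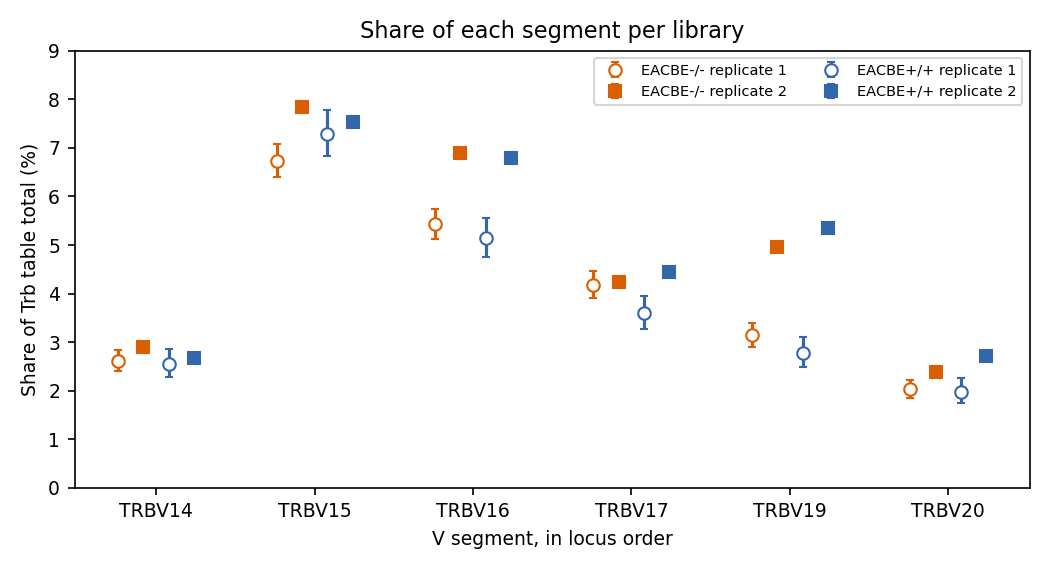
Share of the Trb table total (%, y axis) of each of the 6 V segments in locus order (x axis), with 1 point per library. Orange points are EACBE-/- and blue points wild type (EACBE+/+), open circles replicate 1 and filled squares replicate 2, and bars are 95% Wilson intervals, smaller than the symbol in replicate 2. The genotypes overlap for every segment, and TRBV19 lies between 2.78% and 3.14% in replicate 1 and between 4.96% and 5.35% in replicate 2.

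The first comparison asked whether loss of the Ea site changed the use of these beta segments. No change was detected in any of them. In edgeR's quasi-likelihood test on counts per V segment, 0 of the 6 passed an adjusted p of 0.05, against 0 of all 21 tested (percent called 0), and 0 of 21 had an unadjusted p below 0.05 in edgeR or in DESeq2. The log2 change, EACBE-/- over wild type, lay between -0.10 for TRBV20 and 0.07 for TRBV14, with 3 of 6 above 0. Its median was 0.01 over the 6 segments and 0.01 over all 21.

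The 95% intervals of the fold, EACBE-/- over wild type, give the size of change that these libraries could have missed. For TRBV14 (log2 change 0.07, SE 0.175) the interval was 0.812 to 1.36, and for TRBV15 (log2 change -0.02, SE 0.199) it was 0.734 to 1.32. For TRBV16 (0.04, SE 0.211) it was 0.754 to 1.41, and for TRBV17 (0.05, SE 0.186) it was 0.790 to 1.37. TRBV19 had the widest of the 6, 0.663 to 1.47 (log2 change -0.02, SE 0.271), and TRBV20 (log2 change -0.10, SE 0.194) had 0.699 to 1.24. The adjusted p was 0.970 for each of the 6 in edgeR. No interval reached a fold of 2 or of 0.5. The sign of the change turned with the library left out for all 6 segments, in every case without passing the test.

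The rest of the V array gave the same counts. Of the 5 segments from TRBV1 to TRBV5, the 5 of the TRBV12 and TRBV13 families and the 5 from TRBV23 to TRBV30, 0 passed as higher and 0 as lower. Their median log2 changes were 0.07, -0.02 and -0.07, beside 0.01 for the 6 segments.

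**Figure D2:**
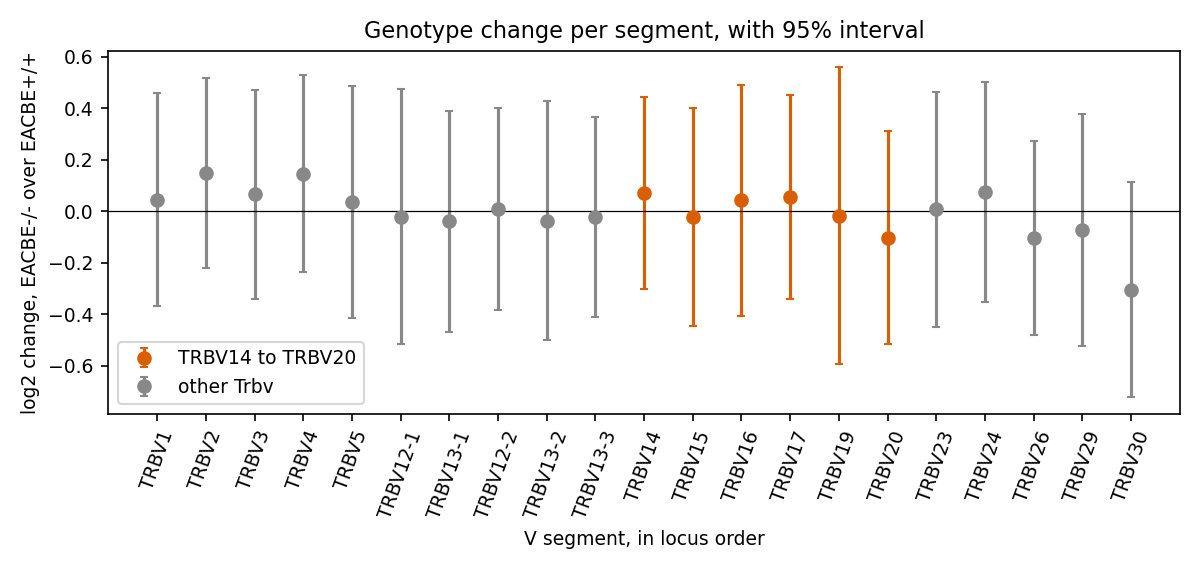
Log2 change of each of the 21 tested Trbv segments, EACBE-/- over wild type (y axis), in locus order (x axis); points are edgeR estimates, bars their 95% intervals, orange the 6 segments from TRBV14 to TRBV20 and grey the others. Every interval includes 0, and the 6 segments lie between -0.10 and 0.07.

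Libraries of different replicate number differed more than the genotypes did. In a fit with genotype and replicate number, added after the data were seen and scaled to segments listed in all tables, replicate 2 held more TRBV19 than replicate 1, with a log2 difference of 0.73 (SE 0.151; edgeR, adjusted p = 0.000957), and did so in both genotypes. For TRBV16 the difference was 0.31 (SE 0.113; edgeR, adjusted p = 0.0472), again with replicate 2 above replicate 1 in both genotypes. The other 4 segments did not pass, with log2 differences of 0.04 for TRBV14, 0.07 for TRBV15, 0.09 for TRBV17 and 0.27 for TRBV20. In this fit 6 of 21 segments, or 28.6%, passed, so 2 of 6 is near the share of the whole table. The labels do not say what a replicate number stands for, and depth and the listing of TRBV31 changed with it; their part in the difference was not tested.

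The J profile, the division of a V segment's counts over the 11 Trbj segments, was then compared between genotypes. All 66 pairs of the 6 segments with a Trbj had counts in all 4 libraries, the smallest being 9 and 252 in EACBE-/- and 2 and 199 in wild type. No difference between genotypes was detected in any pair: 0 of 66 passed in edgeR, against 0 of all 231 pairs (percent called 0), and 0 of 231 had an unadjusted p below 0.05 in edgeR or in DESeq2. This does not show equal use, since the spread in these fits includes the difference between replicate numbers. In the test of whole profiles (edgeR's diffSpliceDGE, which asks whether the J segments of a V changed unequally), 0 of the 6 and 0 of all 21 segments passed (percent called 0), 0 of 21 having an unadjusted p below 0.05. The unadjusted p was lowest for TRBV14 among the 6 segments, at 0.793.

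Among the 66 pairs, the one nearest the threshold was TRBV20 with TRBJ2-1. It had 43 and 1369 counts in EACBE-/- and 46 and 1570 counts in wild type, or 0.208% and 0.309% of EACBE-/- against 0.403% and 0.375% of wild-type table totals. Both EACBE-/- shares lay below both wild-type shares. It was 1 of 11 of the 66 pairs in which the genotypes did not overlap, against 50 of all 231 pairs, or 21.6%. Its log2 change was -0.51 (SE 0.244, unadjusted p = 0.0607, adjusted p = 0.998 in edgeR). With the replicate number as a term it was -0.43 (SE 0.168, unadjusted p = 0.0107, adjusted p = 0.990 in edgeR). TRBV14 with TRBJ1-5 had 12 and 362 counts in EACBE-/- and 2 and 241 counts in wild type, a log2 change of 0.54 (SE 0.313, adjusted p = 0.998 in edgeR). The next pairs were TRBV14 with TRBJ2-2 (log2 change 0.36), TRBV15 with TRBJ1-3 (0.30), TRBV14 with TRBJ1-2 (0.30) and TRBV17 with TRBJ1-4 (0.29), all at adjusted p = 0.998 in edgeR.

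The summed share of the Trbj1 cluster within the 6 segments was 31.2% and 30.1% in EACBE-/- and 30.3% and 27.3% in wild type, for replicates 1 and 2. The genotypes overlapped, with means of 30.6% ± 0.757 in EACBE-/- and 28.8% ± 2.13 in wild type (SD, n = 2 each) and a difference of 1.79 points. In the other Trbv segments the difference was 1.60 points, from means of 32.4% ± 0.420 in EACBE-/- and 30.8% ± 1.54 in wild type. Within replicate 2 the differences were 2.77 points in the 6 segments and 2.39 points in the others, and within replicate 1 they were 0.823 and 0.809 points. In single segments the difference in Trbj1 share lay between -1.32 points in TRBV14, where it was -6.52 points within replicate 1 and 3.87 points within replicate 2, and 4.54 points in TRBV20. The genotypes did not overlap in TRBV17 and TRBV20, 2 of the 6, against 7 of all 21 segments, or 33.3%. Both were higher in each EACBE-/- library than in each wild-type one, by 3.76 points in TRBV17 and 5.61 points in TRBV20 within replicate 1, and by 2.89 and 3.48 points within replicate 2.

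**Figure D3:**
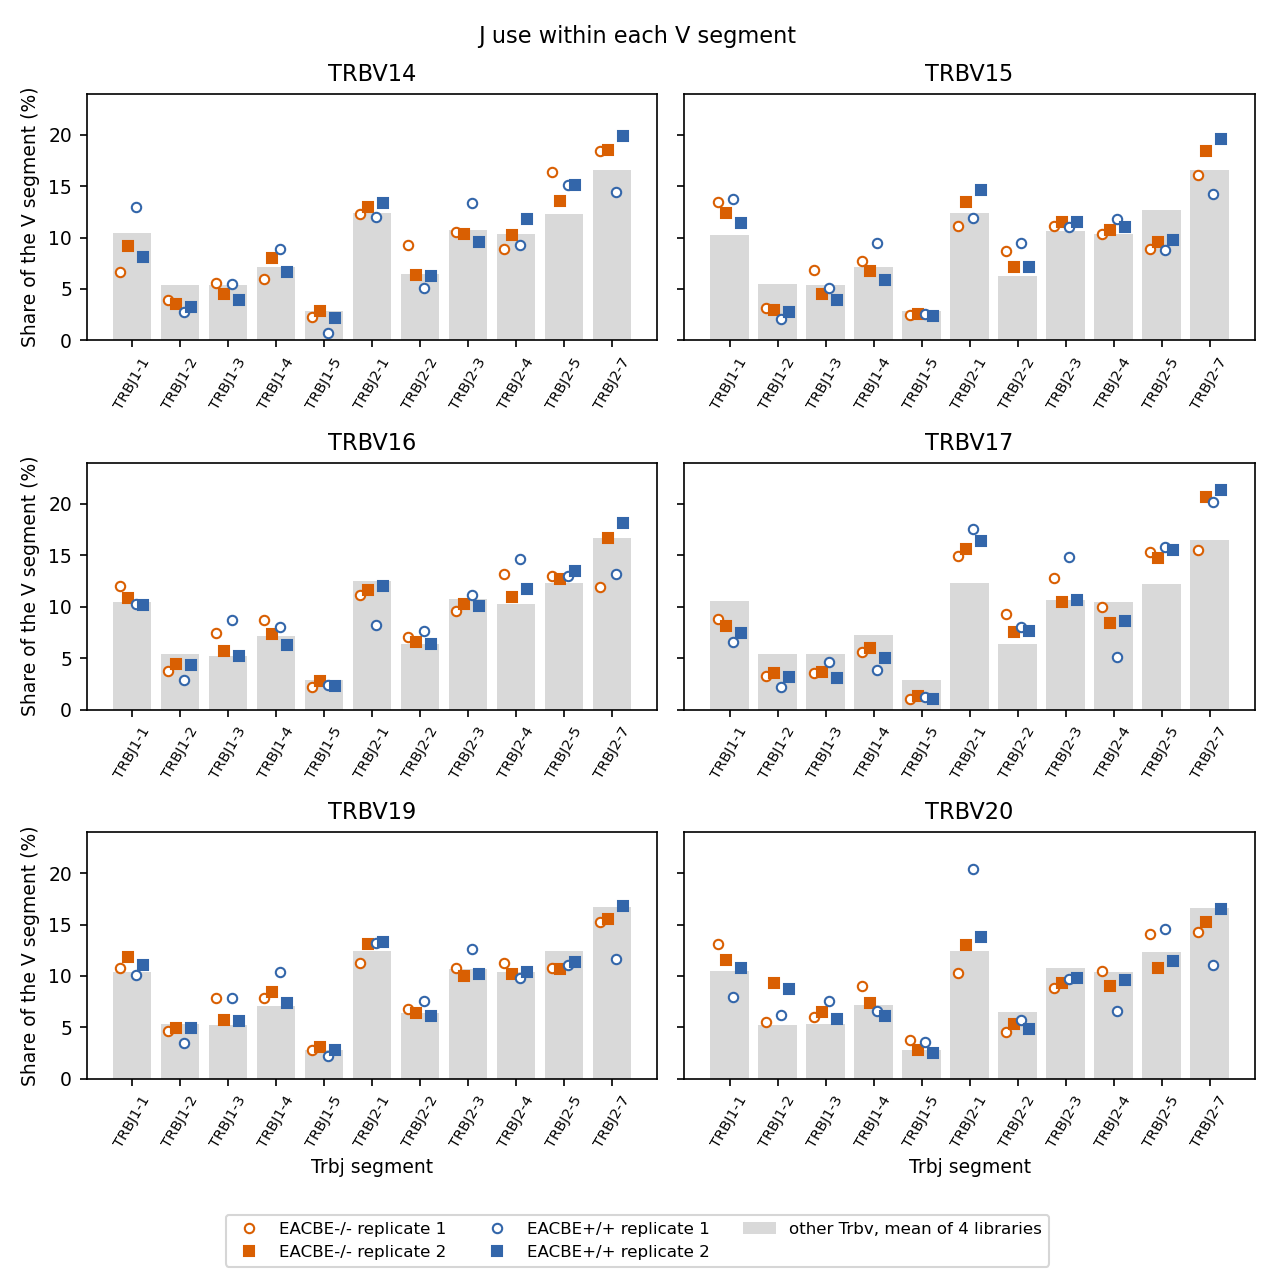
Share of each V segment's counts (%, y axis) joined to each Trbj segment (x axis), in 1 panel per V segment. Orange points are EACBE-/- and blue points wild type, open circles replicate 1 and filled squares replicate 2, and grey bars are the mean share over the 4 libraries in all other Trbv segments. TRBJ1-5 is low in every panel and lowest by its mean in TRBV17, where it lies between 1.04% and 1.34%.

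The 4 libraries were then used together to ask how the J profile of each V segment differs from that of the other Trbv segments in the same library. By mean share over the 4 libraries, TRBJ2-7 was the most used J of TRBV14 (17.8% ± 2.36), TRBV15 (17.1% ± 2.42), TRBV16 (15.0% ± 2.90), TRBV17 (19.4% ± 2.65) and TRBV19 (14.8% ± 2.19; SD, n = 4). In TRBV20 it was TRBJ2-1 (14.4% ± 4.28), which led in 1 of 4 libraries, wild-type replicate 1. TRBJ1-5 was the least used J of all 6, with means between 1.17% in TRBV17 and 3.18% in TRBV20. The other Trbv segments had means of 16.5% to 16.7% for TRBJ2-7 and 2.83% to 2.91% for TRBJ1-5. As a log2 ratio to the rest, TRBJ2-7 was below 0 in 4 of 4 libraries in TRBV16 (mean -0.18), TRBV19 (-0.18) and TRBV20 (-0.23). The TRBV20 ratio was the lowest of the 21 segments. In the tests described next, each passed in edgeR but not in limma (adjusted p = 0.132, 0.114 and 0.0727). By its mean TRBV20 used TRBJ1-5 more, but only in replicate 1 (log2 ratio 0.42 in EACBE-/- and 0.45 in wild type). In replicate 2 that ratio was -0.10 and -0.08, and the pair passed neither test. TRBJ2-7 led in 2 of 4 libraries in TRBV16 and in 3 of 4 in TRBV14 and TRBV19.

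Each of 21 V segments was tested against the rest for each of 11 Trbj segments with edgeR, and 151 of 231 pairs, or 65.4%, passed. Of the 66 pairs of the 6 segments, 51 passed, 25 higher and 26 lower. With each library weighted equally (limma on log2 ratios per library, added after the data were seen), 56 of 231 pairs, or 24.2%, passed, and 21 of the 66, 8 higher and 13 lower; all 21 also passed in edgeR and had the same sign in 4 of 4 libraries. Unequal J use was thus common across the whole array, and these counts say little about the 6 segments as a group. The deep replicate 2 libraries carry the edgeR count, which fell to 27 of 66 without EACBE-/- replicate 2 and to 26 without wild-type replicate 2. Shares within a V segment add up to a fixed total, so a J that is higher goes with others that are lower. A pair is called higher or lower below where both tests passed, unless 1 test is named.

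TRBV17 stood out among the 6. Its Trbj1 share was 22.2% and 22.6% in EACBE-/- and 18.5% and 19.7% in wild type, whereas the other Trbv segments had 32.8% and 31.9% in EACBE-/- and 32.0% and 29.4% in wild type. It was lower than the rest in 4 of 4 libraries, at a mean difference of -10.7 points ± 1.92 (SD, n = 4), the lowest of the 21 segments. TRBV30 was all but level with it at -10.7 points ± 6.07, with 54 and 1236 counts in EACBE-/- and 34 and 1479 counts in wild type. Of its 11 Trbj segments 8 passed both tests, which is 8 of the 21 calls: all 5 of the Trbj1 cluster were lower, and TRBJ2-1, TRBJ2-2 and TRBJ2-5 were higher.

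The largest deviation of TRBV17 was in TRBJ1-5. It took 1.04% and 1.34% of TRBV17 counts in EACBE-/- and 1.22% and 1.07% in wild type, against 3.02% and 3.08% in EACBE-/- and 2.77% and 2.76% in wild type in the other Trbv segments. The groups of values do not overlap, and the log2 ratio was -1.27 ± 0.176 (SD, n = 4; adjusted p = 0.00399 in limma and 3.68e-09 in edgeR). The mean ratio for this J was nearly as low in TRBV12-1 (-1.27 ± 0.262). TRBJ1-2 took 3.24% and 3.57% of TRBV17 counts in EACBE-/- and 2.19% and 3.21% in wild type, a log2 ratio of -0.83 ± 0.256 (adjusted p = 0.0105 in limma). The ratio was -0.53 ± 0.196 for TRBJ1-3, -0.51 ± 0.268 for TRBJ1-4 and -0.46 ± 0.190 for TRBJ1-1. In the Trbj2 cluster it was 0.39 ± 0.107 for TRBJ2-1, 0.35 ± 0.0885 for TRBJ2-2 and 0.32 ± 0.0280 for TRBJ2-5. The rest of that cluster did not pass in limma. Of it, TRBJ2-3 (0.18 ± 0.153) and TRBJ2-7 (0.23 ± 0.173) were above 0 in 4 of 4 libraries. TRBJ2-4 went the other way, below 0 in 4 of 4 (-0.42 ± 0.436, adjusted p = 9.00e-05 in edgeR and 0.133 in limma).

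Among the 6, TRBJ1-2 was lower than in the rest of the table in TRBV14, TRBV15, TRBV16 and TRBV17 and higher in TRBV20. In TRBV15 it took 3.16% and 2.98% in EACBE-/- and 2.04% and 2.79% in wild type, against 5.11% and 5.85% in EACBE-/- and 5.35% and 5.79% in wild type in the other Trbv segments. That log2 ratio of -1.02 ± 0.276 (SD, n = 4; adjusted p = 0.00978 in limma and 1.72e-20 in edgeR) was the lowest of the 21 segments. In TRBV14 it took 3.90% and 3.54% in EACBE-/- and 2.74% and 3.22% in wild type (log2 ratio -0.67 ± 0.230, adjusted p = 0.0118 in limma).

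In TRBV16 TRBJ1-2 took 3.74% and 4.43% in EACBE-/- and 2.90% and 4.29% in wild type, a log2 ratio of -0.50 ± 0.214 (adjusted p = 0.0221 in limma). In TRBV19 the ratio was -0.25 ± 0.192, below 0 in 4 of 4 libraries, but it did not pass in limma (adjusted p = 0.0902). In TRBV20 TRBJ1-2 took 5.49% and 9.32% in EACBE-/- and 6.19% and 8.74% in wild type, against 4.96% and 5.53% in EACBE-/- and 5.07% and 5.48% in wild type in the other Trbv segments. It was higher in 4 of 4 libraries, with a log2 ratio of 0.47 ± 0.287 (adjusted p = 0.0449 in limma), and the excess was larger in replicate 2 of both genotypes. Over the table, TRBJ1-2 was lower in 4 and higher in 1 of the 6 segments, and lower in 1 and higher in 5 of the 15 others. This J was singled out after its values were seen, and the difference between these counts was not tested.

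**Figure D4:**
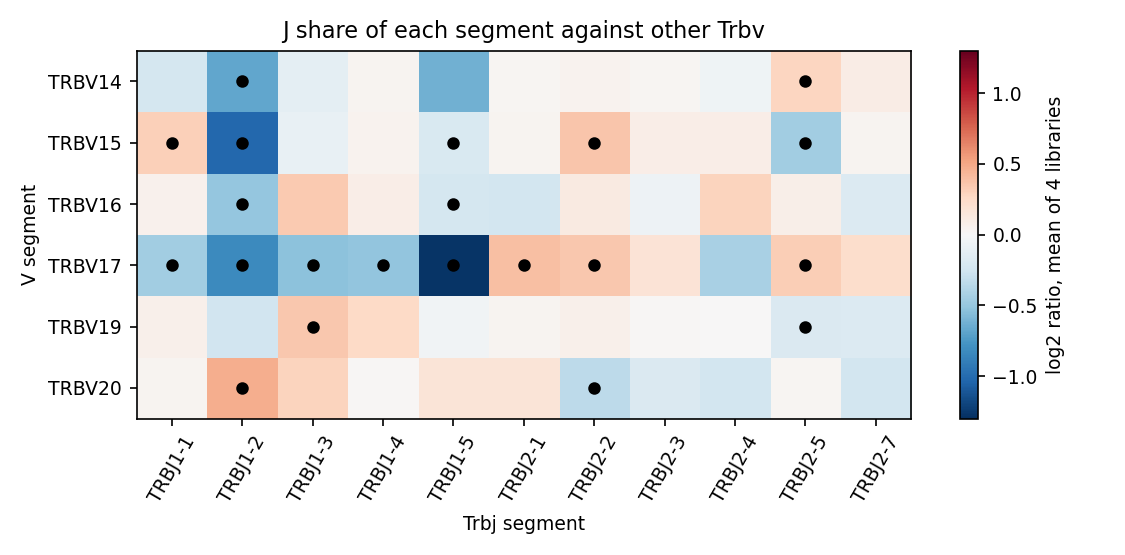
Log2 ratio of the share of each Trbj (x axis) in each of the 6 V segments (y axis) to its share in all other Trbv segments of the same library, as the mean of 4 libraries (colour; blue lower, red higher). Black dots mark the 21 pairs that passed an adjusted p of 0.05 in both edgeR and limma. TRBV17 holds 8 of them, and the TRBJ1-2 column is blue for TRBV14 to TRBV19 and red for TRBV20.

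The 5 TRBJ segments that passed in TRBV15 had all passed in TRBV17 as well, TRBJ1-2, TRBJ1-5 and TRBJ2-2 in the same direction and TRBJ1-1 and TRBJ2-5 in the opposite one. TRBJ2-5 took 8.90% and 9.56% of its counts in EACBE-/- and 8.77% and 9.75% in wild type, against 12.7% and 12.3% in EACBE-/- and 12.7% and 12.9% in wild type in the other Trbv segments (log2 ratio -0.45 ± 0.0801, adjusted p = 0.00978 in limma). TRBJ2-2 was higher in TRBV15, at 8.69% and 7.18% in EACBE-/- and 9.50% and 7.17% in wild type (log2 ratio 0.36 ± 0.133), and TRBJ1-1 likewise (0.31 ± 0.0617), while TRBJ1-5 was lower (-0.20 ± 0.0758). TRBV15 thus combined a high TRBJ1-1 with a low TRBJ1-2. Its Trbj1 share as a whole, 30.5% ± 3.42 (SD, n = 4), was above the rest in 2 of 4 libraries and below it in 2, split by replicate number. In replicate 1 it was above, at 33.7% against 32.2% in EACBE-/- and 32.8% against 31.4% in wild type. In the deeper replicate 2 it was below, at 29.1% against 31.7% in EACBE-/- and 26.3% against 29.2% in wild type.

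TRBV14 resembled TRBV17 in a low Trbj1 share, 24.3% and 28.0% in EACBE-/- and 30.8% and 24.1% in wild type, below the rest in 4 of 4 libraries at a mean difference of -4.39 points ± 3.13. The difference ranged from -8.23 points in EACBE-/- replicate 1 to -0.701 points in wild-type replicate 1, where TRBV14 had 292 counts. Outside the region TRBV3, TRBV4, TRBV12-2, TRBV13-2 and TRBV30 were also below the rest in 4 of 4 libraries. Beside TRBJ1-2, the pair that passed both tests was TRBJ2-5, which took 16.3% and 13.6% of TRBV14 in EACBE-/- and 15.1% and 15.1% in wild type, against 12.3% and 12.1% in EACBE-/- and 12.3% and 12.5% in wild type in the other Trbv segments (log2 ratio 0.28 ± 0.0955). TRBJ1-1 was lower in edgeR (adjusted p = 0.0129), at 6.68% and 9.17% in EACBE-/- and 13.0% and 8.09% in wild type, but not in limma (adjusted p = 0.327), and its sign was not the same in every library. TRBJ2-5 was thus higher in TRBV14 and TRBV17 than in the rest, and lower in TRBV15 and TRBV19.

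TRBV16 had a Trbj1 share of 34.1% and 31.2% in EACBE-/- and 32.3% and 28.3% in wild type. Its mean difference from the rest, 0.409 points ± 1.21, was the nearest to 0 of the 6. It was above the rest in the 2 libraries of replicate 1 and below it in the 2 of replicate 2. TRBV15 lay at -0.625 points ± 2.43, a difference between the means that was within this spread over libraries. Within replicate 2, however, TRBV16 had the higher Trbj1 share in both genotypes (31.2% against 29.1% in EACBE-/-, 28.3% against 26.3% in wild type). Within replicate 1 it was the higher in EACBE-/- (34.1% against 33.7%) and the lower in wild type (32.3% against 32.8%). The calls of TRBV16 in both tests were TRBJ1-2 and TRBJ1-5 (log2 ratio -0.23 ± 0.115), both lower. In edgeR TRBJ1-3 was also higher, at 7.40% and 5.74% in EACBE-/- and 8.70% and 5.19% in wild type, but not in limma (adjusted p = 0.0646).

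The last pair of the region leaned to the Trbj1 cluster. So did TRBV13-1, TRBV13-3, TRBV26 and TRBV29 outside it, each above the rest in 4 of 4 libraries. TRBV26 had the highest mean difference of the 21 segments, 4.69 points. TRBV19 had a Trbj1 share of 33.9% and 34.1% in EACBE-/- and 34.1% and 31.9% in wild type, above the rest in 4 of 4 libraries at a mean difference of 2.53 points ± 0.623. TRBJ1-3 was higher in it, with 7.86% and 5.72% in EACBE-/- and 7.89% and 5.65% in wild type (log2 ratio 0.35 ± 0.143, adjusted p = 0.0239 in limma), and TRBJ2-5 was lower (-0.19 ± 0.0205). TRBJ1-4 and TRBJ1-1 passed in edgeR alone, TRBJ1-4 with a ratio of 0.26 ± 0.209 (above 0 in 4 of 4 libraries, adjusted p = 0.0967 in limma) and TRBJ1-1 with 0.07 ± 0.148. TRBV20 had 37.5% and 37.5% in EACBE-/- and 31.9% and 34.0% in wild type, above the rest in 4 of 4 libraries at a mean difference of 4.21 points ± 2.60. The difference ranged from 6.09 points in EACBE-/- replicate 2 to 0.362 points in wild-type replicate 1. There TRBV20 had 226 counts, too few to tell so small a difference from 0. In TRBV20, TRBJ2-2 was lower, at 4.53% and 5.28% in EACBE-/- and 5.75% and 4.82% in wild type (log2 ratio -0.34 ± 0.170, adjusted p = 0.0377 in limma). TRBJ1-3 was higher in edgeR and had a ratio of 0.29 ± 0.182, above 0 in 4 of 4 libraries, but did not pass in limma (adjusted p = 0.0625).

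**Figure D5:**
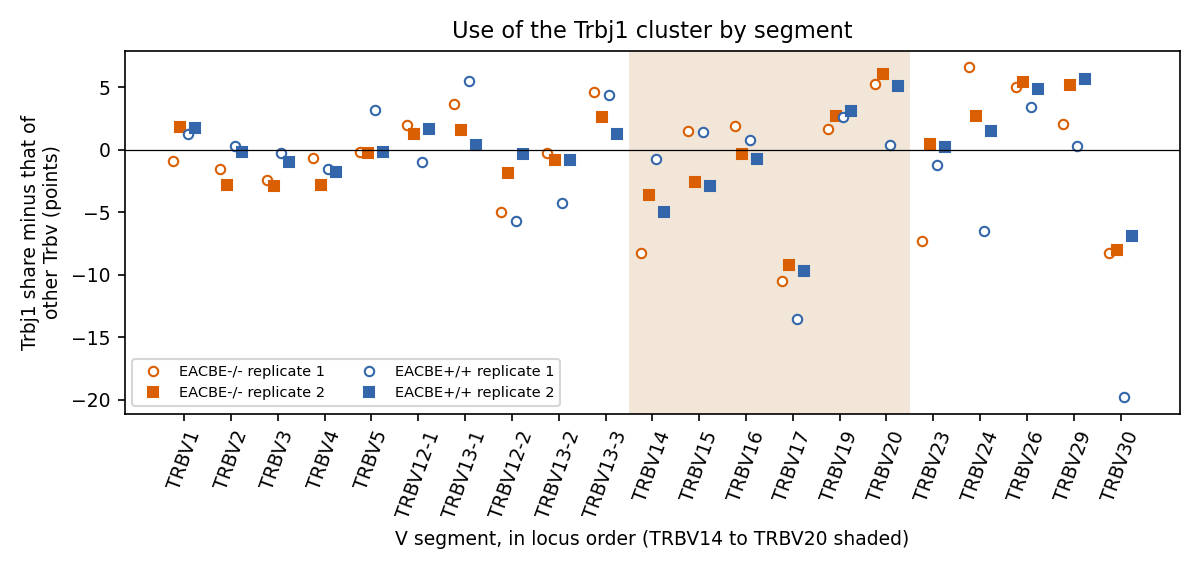
Trbj1 share of each of 21 Trbv segments minus that of all other Trbv segments of the same library (percentage points, y axis), in locus order (x axis), with TRBV14 to TRBV20 shaded. Orange points are EACBE-/- and blue points wild type, open circles replicate 1 and filled squares replicate 2. TRBV17 lies below 0 in all 4 libraries, and TRBV30, with few counts in replicate 1, is nearly level with it by its mean. TRBV3, TRBV4, TRBV12-2, TRBV13-2 and TRBV14 also lie below 0 in all 4. TRBV19 and TRBV20 lie above 0 in all 4, as do TRBV13-1, TRBV13-3, TRBV26 and TRBV29.

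The distance between profiles was measured as total variation, the percentage of counts that would have to move to another J for a pair of profiles to match. Between members it was lowest for TRBV16 and TRBV19, at 6.39%, and highest for TRBV17 and TRBV20, at 16.0%, as means of 4 libraries. In the deep replicate 2 libraries alone these pairs lay at 4.73% and 15.3%, while the same segment in EACBE-/- and wild type differed by between 2.40% (TRBV19) and 4.79% (TRBV14). In replicate 1 that distance between genotypes was between 4.98% (TRBV15) and 15.0% (TRBV20), a range that overlaps the distances between members.

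Outside the region, the segment with the nearest J profile was TRBV5 for TRBV14 (6.58% ± 2.82, SD, n = 4) and for TRBV16 (6.35% ± 3.40), and TRBV13-1 for TRBV15 (6.99% ± 0.887). It was TRBV12-2 for TRBV17 (11.1% ± 3.39), and TRBV13-3 for TRBV19 (5.39% ± 1.21) and for TRBV20 (8.25% ± 5.57). In replicate 2 alone TRBV16 kept TRBV5 as its nearest, at 3.61%, whereas the nearest became TRBV30 for TRBV17 (5.08%) and TRBV26 for TRBV20 (2.51%). It became TRBV4 for TRBV14 (4.37%), TRBV5 for TRBV15 (6.16%) and TRBV13-1 for TRBV19 (4.13%). Over all 4 libraries TRBV17 thus lay farther from its nearest segment than any other of the 6 did. This did not hold in replicate 2 alone, where TRBV15 lay farthest, at 6.16% against 5.08% for TRBV17.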

How the data were processed

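Trb repertoire libraries were made from thymus RNA by template switching and amplification, per the labels' protocols. What the authors deposited for a library is a grid of raw counts, 1 row per V and 1 column per J; no source used here names the program that assigned the segments. The build was mm10, per the submitters' processing notes, which also list, in roles not stated, Juicer 1.13.02, HiC-Pro 2.11.1, bedtools 2.26.0, cutadapt 0.4.4 and 2 releases of Bowtie2, 2.3.4.3 and 2.20.8. If counts are reads, 1 clone with much receptor RNA can outweigh many small clones. Of 40 samples in the series, the 4 Trb libraries were analysed.

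All 33 symbols in the tables matched RefSeq (GRCm38.p6). Counts were tested by the quasi-likelihood F-test of edgeR 4.0.16 under R 4.3.3; library sizes were the table totals, unscaled, and filterByExpr (minimum count 10, minimum total 15) set which rows were tested, among the 21 segments listed in all tables. TRBV31 stayed in the totals. J profiles were compared between genotypes with diffSpliceDGE, and each V segment with all others of the 21, with a library term, in edgeR and, after adding 0.5 counts to each pair, on log2 ratios in limma 3.58.1. The edgeR fit of J use was made per V and shrinks the spread over its 11 Trbj segments. Benjamini-Hochberg adjustment ran over all features of a fit, with calls at 0.05. DESeq2 1.42.0 was an alternative. The edgeR fits of V segments, V-J pairs, J profiles and J use were tested on simulated data without a difference between replicate numbers. The limma, DESeq2 and replicate-number fits were not. Shares, distances and figures came from Python 3.11.15 with pandas 2.3.3, numpy 2.4.6, scipy 1.17.1 and matplotlib 3.10.9.

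The segments and lists were chosen with earlier results of these data known. All 6 segments were named, with the most and least used J, up to 3 J segments past the edgeR threshold with the largest log2 difference and the nearest J profile for each, and the 6 V-J pairs with the lowest p-values.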

Additional observations from a re-analysis of the deposited data

How the results depend on the processing

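Counts of 0 for Trbv segments, V-J pairs and J profiles by genotype held with TMM factors, DESeq2, no filter, other totals and each library left out, as far as each was run, with 1 exception: with the replicate block (the replicate number as a term) 1 of 21 Trbv segments passed, TRBV30, which is not among the 6 (log2 change -0.32). Same-numbered libraries deviated together (r = 0.827 over 21 segments, across segments, which are not independent), but with 2 numbers this does not show that they pair, and the block changed no call of the 6. The central share differed by 0.227 points with the block too, and by between -2.86 and 3.31 points with a library left out, since genotypes then hold unlike replicate numbers; the Trbj1 difference was then between 0.288 and 3.30 points. Signs of log2 changes of the 6 turned, none passing the test. TRBV19 was at 0.0102 in DESeq2 and 0.00731 with the block. With a library left out the log2 change lay between -0.00701 and 0.14 for TRBV14, -0.14 and 0.083 for TRBV15, -0.14 and 0.27 for TRBV16, -0.083 and 0.22 for TRBV17, -0.39 and 0.56 for TRBV19, and -0.29 and 0.16 for TRBV20. J preferences passed for 76 of 231 pairs and 24 of the 66 with no library term, and for 56 and 21 in limma. Leaving out libraries gave 96 to 153 and 26 to 52. In limma 2 of the 51 edgeR calls turned sign, TRBV15 with TRBJ1-4 and TRBV20 with TRBJ2-5. Where a library was left out, the lone one of its genotype was assumed to vary like the other genotype. The causes were not tested. Depth limits replicate 1, where a pair held as few as 2 counts.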
